A study of Arabidopsis thaliana with 12 samples.

Results

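Chitinase genes were followed in leaves of Arabidopsis thaliana through every probe set that the array annotation assigned to a single gene and to CHI, ChiC or AT1G02360. Each of these 3 genes had 1 such probe set, out of 13356 genes with a single-gene probe set and 22746 probe sets tested. CHI is AT2G43570 on chromosome 2 and ChiC is AT4G19810 on chromosome 4, and AT1G02360 lies on chromosome 1. The symbol CHI is also used for other plant genes, and here the gene number of the annotation gave AT2G43570.

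Chitinases cut chitin, the polymer of N-acetylglucosamine that forms part of fungal cell walls and that plants themselves do not make. The plant enzymes fall into glycoside hydrolase families with unrelated folds, GH19, to which CHI and AT1G02360 belong, and GH18, to which the class V enzyme ChiC belongs. Chitin fragments released from a fungus are recognised by LysM receptors at the plant cell surface, and many chitinase genes are counted among the pathogenesis-related genes. What each of the 3 genes does in a living leaf was not measured here.

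The leaves were labelled as 4 weeks old and came from plants grown at 22 °C, 65% relative humidity and a 14 h day. The 4 genotypes, with 3 replicates and 1 array each, were ssi2 act1, ssi2 sid2, ssi2 and wild type, all labelled as Col-0 in background. The 3 mutant lines all carry ssi2, which lowers the activity of the plastid enzyme that desaturates stearic acid into oleic acid. ACT1 encodes an enzyme of plastids that transfers oleic acid to glycerol-3-phosphate, and SID2 encodes the isochorismate synthase through which most pathogen-induced salicylic acid is made. The study was about defence signalling through oleic acid and nitric oxide, per its title. Alleles are not given in the labels, and the mutated genes themselves were not analysed here.

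Levels are given as linear signal intensities, and differences between genotypes are differences of log2(signal + 16), tested with limma over all 12 arrays. A difference was called at an adjusted p under 0.05 over all probe sets, and n is 3 arrays per genotype throughout. Pearson's r of replicate arrays ranged from 0.914 to 0.982 over probe sets, and 16.9% to 21.8% of signals were under 16. The arrays that stood apart were wild type replicate 2, whose mean correlation with its genotype was the lowest (0.917), and ssi2 replicate 3, whose control probe set for 25S rRNA reached 1817 where all others gave 174 to 600. In leaf samples, fewer cells of a type and less RNA per cell cannot be told apart.

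In ssi2 CHI, a GH19 chitinase gene, was far above wild type, and act1 lowered it below every ssi2 array. Its signals in ssi2 were 8122, 9265 and 8646, against 166, 1129 and 85.3 in wild type. Every ssi2 array was above every wild type array, and wild type replicate 2 was the highest of its genotype. The log2 difference was 4.97 (SE 1.03, limma adjusted p = 0.00944). Without wild type replicate 2 it was 6.0 (adjusted p = 0.00225), and without both that array and ssi2 replicate 3 it remained called.

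Adding act1 to ssi2 lowered CHI. The signals in ssi2 act1 were 12, 57.7 and 457, all far below those in ssi2, and the 3 arrays spread more widely than those of any other genotype on the log2 scale (SD 2.07, against 0.09 in ssi2). The log2 difference was -6.45 (SE 1.03, limma adjusted p = 0.00288). Against wild type it was -1.48, with a 95% interval of -3.73 to 0.77 (adjusted p = 0.647), and the arrays overlapped. It was -0.45 without wild type replicate 2, -0.57 without ssi2 act1 replicate 1 and -2.6 without ssi2 act1 replicate 3, and 0.36 with array weights.

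Adding sid2 left CHI between ssi2 and wild type. Its signals in ssi2 sid2 were 4037, 949 and 4355, with replicate 2 the lowest. Each was below every ssi2 array, but the log2 difference of -1.75 was not called (95% interval -4.0 to 0.50, limma adjusted p = 0.455), and it was -1.04 without replicate 2 of ssi2 sid2. Against wild type the difference was 3.22 (95% interval 0.97 to 5.47, adjusted p = 0.0907), and ssi2 sid2 replicate 2 lay below wild type replicate 2. Without wild type replicate 2 it was 4.25 and called (adjusted p = 0.0221). CHI was lower in ssi2 act1 than in ssi2 sid2, with a log2 difference of -4.70 (SE 1.03, adjusted p = 0.0203) and no overlap of arrays. That call was lost without ssi2 act1 replicate 1 (adjusted p = 0.0639) or 2 (0.0767) and without ssi2 sid2 replicate 1 (0.09) or 3 (0.102), with differences of -3.79 to -4.49.

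In order of mean log2 level, CHI ran from ssi2 (13.08 ± 0.09, SD) through ssi2 sid2 (11.33 ± 1.23) and wild type (8.11 ± 1.83) to ssi2 act1 (6.63 ± 2.07). No pair of neighbours in that order differed past the threshold.

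ChiC, the GH18 gene, rose in ssi2 and fell with either added mutation. Its signals in ssi2 were 409, 412 and 329, against 63.6, 165 and 60.8 in wild type. The genotypes did not overlap, and wild type replicate 2 was again the highest of the wild type arrays. The log2 difference was 1.94 (SE 0.344, limma adjusted p = 0.00386), and 2.35 without wild type replicate 2.

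The ssi2 act1 arrays gave ChiC signals of 64.7, 98.4 and 80.4, a log2 difference from ssi2 of -2.05 (SE 0.344, limma adjusted p = 0.00369). In ssi2 sid2 the signals were 68.7, 48.8 and 31.8, a difference from ssi2 of -2.63 (SE 0.344, adjusted p = 0.00193). All 6 arrays of these genotypes lay below the 3 ssi2 arrays. These calls held in each of the 22 alternatives.

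Against wild type ChiC had a log2 difference of -0.10 in ssi2 act1 (95% interval -0.85 to 0.65, limma adjusted p = 0.962) and of -0.69 in ssi2 sid2 (-1.44 to 0.06, adjusted p = 0.295). The first of these turned to 0.30 without wild type replicate 2 and to 0.02 without ssi2 act1 replicate 1. Between ssi2 act1 and ssi2 sid2 the difference was 0.59 (95% interval -0.16 to 1.34, adjusted p = 0.399). The mean log2 levels ran from 8.63 ± 0.17 in ssi2 through 6.69 ± 0.70 in wild type and 6.59 ± 0.25 in ssi2 act1 to 6.0 ± 0.41 in ssi2 sid2 (SD). In that order ssi2 differed from wild type past the threshold, and the later neighbours did not.

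AT1G02360, the other GH19 gene, rose in ssi2 and overlapped with ssi2 when act1 was added. Its signals in ssi2 were 105, 151 and 304, against 27.9, 17.6 and 48.9 in wild type, with ssi2 replicate 3 the highest of all 12 arrays. The log2 difference was 2.02 (SE 0.388, limma adjusted p = 0.0061), and 1.63 without ssi2 replicate 3 (adjusted p = 0.0157). Here wild type replicate 2 was the lowest of its genotype, unlike for CHI and ChiC.

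In ssi2 act1 the AT1G02360 signals were 97.6, 150 and 153, which overlapped those of ssi2. The log2 difference from ssi2 was -0.34 (95% interval -1.19 to 0.51, limma adjusted p = 0.688), and it turned to 0.05 without ssi2 replicate 3. All 3 arrays were above wild type, but the difference of 1.69 missed the threshold (SE 0.388, adjusted p = 0.0532). It was called in 7 of 22 alternatives, among them without ssi2 replicate 1 (adjusted p = 0.045) or 3 (0.025), where the difference itself was the same.

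In ssi2 sid2 the AT1G02360 signals were 36, 70.3 and 33.4, all below ssi2. The log2 difference from ssi2 was -1.62 (SE 0.388, limma adjusted p = 0.0458). This call was lost in 13 of 22 alternatives, with an adjusted p of 0.000456 to 0.192 over all of them. Among the single arrays left out, it was lost without wild type replicate 1 (0.0689), ssi2 replicate 2 (0.105) or 3 (0.128), ssi2 act1 replicate 1 (0.053), 2 (0.0622) or 3 (0.0665), and ssi2 sid2 replicate 1 (0.166) or 3 (0.192). The smallest difference among these was -1.23, without ssi2 replicate 3.

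Against wild type, AT1G02360 in ssi2 sid2 had a log2 difference of 0.40 (95% interval -0.44 to 1.25, limma adjusted p = 0.656). It had 1.28 between ssi2 act1 and ssi2 sid2 (SE 0.388, adjusted p = 0.0747), with no overlap of arrays, and 6 alternatives called it, including the fit without ssi2 replicate 3 (adjusted p = 0.0369). The mean log2 levels ran from 7.54 ± 0.72 in ssi2 through 7.2 ± 0.32 in ssi2 act1 and 5.92 ± 0.45 in ssi2 sid2 to 5.52 ± 0.48 in wild type (SD). No neighbours in that order differed past the threshold.

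**Figure D1:**
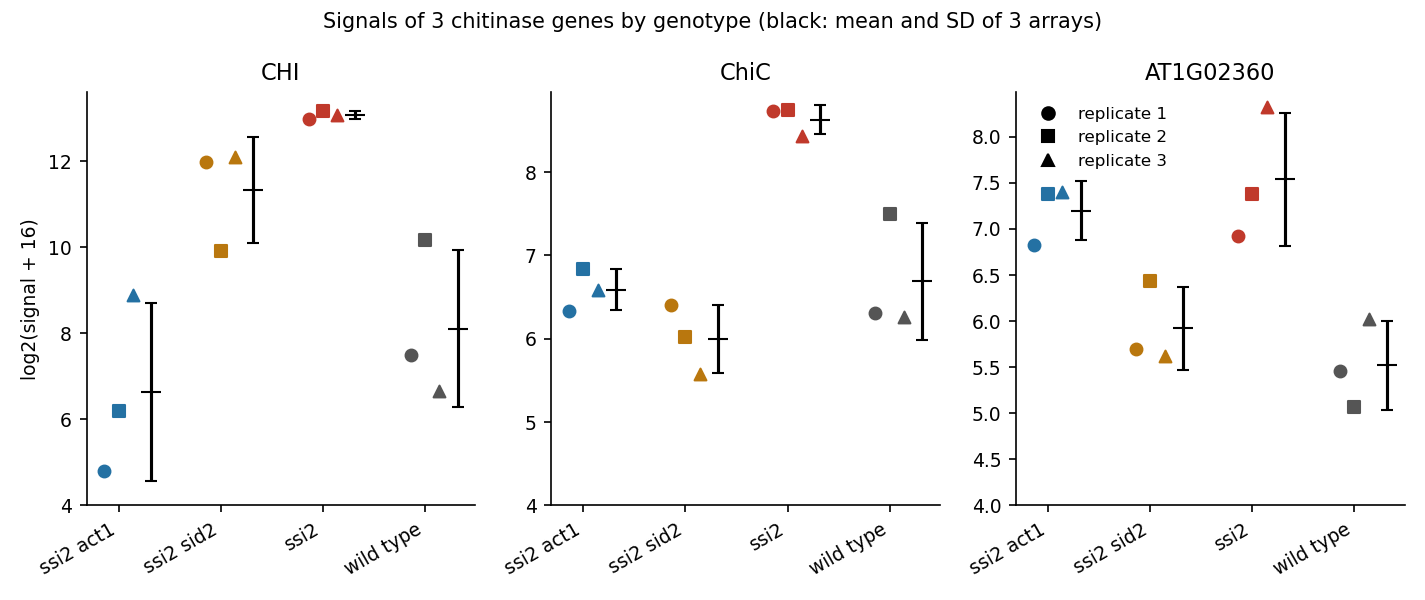
Levels of CHI, ChiC and AT1G02360 as log2(signal + 16) on each of the 12 arrays, by genotype, with the mean and SD of 3 arrays in black; the marker shape gives the replicate. The ssi2 arrays were above every wild type array for all 3 genes. For CHI the ssi2 act1 arrays were below ssi2 and overlapped with wild type, and AT1G02360 overlapped between ssi2 act1 and ssi2.

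All 3 genes were thus higher in ssi2 than in wild type, in a comparison that called 5.77% of all probe sets as higher and 4.34% as lower. The arrays of ssi2 lay above those of wild type without overlap for all 3, as for 14.3% of all probe sets. Between ssi2 act1 and ssi2, CHI and ChiC fell, where 5.20% of all probe sets were called lower and 3.17% higher, and both were without overlap, as were 13.1% of all probe sets. Between ssi2 sid2 and ssi2, ChiC and AT1G02360 fell, where 1.71% were called lower and 1.42% higher, and all 3 genes were lower without overlap, as were 13.5%. The AT1G02360 call in that comparison was lost in 13 of 22 alternatives.

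None of the 3 was called against wild type in ssi2 act1, where 1.79% of all probe sets were called in either direction, or in ssi2 sid2, where 6.41% were. Without adjustment, limma passed AT1G02360 in the first and CHI in the second at a threshold of 0.05. How many of all probe sets passed without adjustment was not counted, so these passes cannot be judged against that share. The AT1G02360 arrays of ssi2 act1 were above wild type without overlap, as for 8.43% of all probe sets. Between ssi2 act1 and ssi2 sid2 only CHI was called, as lower in ssi2 act1, where 3.96% were called lower, and its arrays were lower without overlap, as for 13.5%. AT1G02360 was higher there without overlap, as for 13.3%. The first 3 comparisons share the ssi2 arrays, so their values are not independent.

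The share of calls that were higher moved with the scaling of the arrays. In ssi2 against wild type it was 57.1%, but 44.4% with quantile normalization and 34.1% with each array centred on its median. For ssi2 act1 against ssi2 it was 37.8%, but 50.9% and 62.9% in that order, and for ssi2 sid2 against ssi2 45.3%, but 61.4% with centring. Median centring moved the median difference between ssi2 and wild type over all probe sets to -0.221, against 0.078 as deposited, and CHI, ChiC and AT1G02360 then had differences of 4.68, 1.64 and 1.73, all called.

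**Figure D2:**
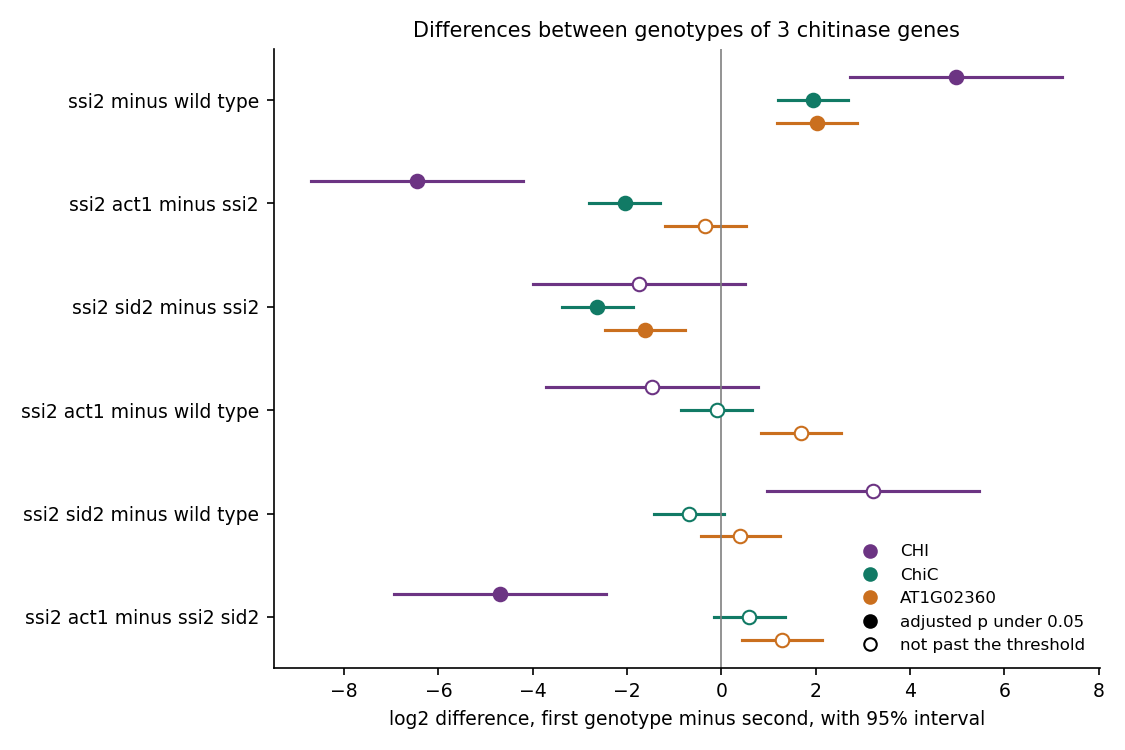
Log2 differences of CHI, ChiC and AT1G02360 in the 6 comparisons of genotypes, with 95% intervals from limma; filled points passed an adjusted p of 0.05. All 3 genes lay above 0 in ssi2 minus wild type, while in ssi2 act1 minus ssi2 the interval of AT1G02360 alone spanned 0, as that of CHI did in ssi2 sid2 minus ssi2.

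How far the genes moved together was read from log2 ratios within an array, whose size has no meaning by itself because probe sets differ in brightness. The ratio of ChiC to AT1G02360 lay between -0.81 and -0.49 in ssi2 act1 and between 0.11 and 1.81 in ssi2, a difference of -1.71. For CHI and AT1G02360 the difference of ratios between these genotypes was -6.11, and for CHI and ChiC it was -4.40, both without overlap. Each of these had p = 0.1 in a two-sided exact permutation test over 3 against 3 arrays, the smallest value that this design allows, and 0.2 after adjustment over the 18 ratios tested, so none passed a threshold of 0.05. For CHI and ChiC in ssi2 against wild type the difference of ratios was 3.03 without overlap, with the same exact p of 0.1 and adjusted value of 0.2. The other pairs overlapped there, with 2.95 for CHI and AT1G02360 and -0.08 for ChiC and AT1G02360 (exact permutation p of 0.2 and 0.9). For ssi2 sid2 against ssi2 the ratios of all 3 pairs of genes overlapped, with differences of 0.88 for CHI and ChiC, -0.13 for CHI and AT1G02360 and -1.01 for ChiC and AT1G02360 (exact permutation p of 0.4, 1.0 and 0.2).

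Among 12 other chitinase genes of family GH19, 8 had a single-gene probe set. In ssi2 against wild type 2 of the 8 rose and 1 fell, where 5.77% of all probe sets were called higher and 4.34% lower. Their median log2 difference was 0.36, against 0.08 over all probe sets. In ssi2 act1 against ssi2 3 fell and 0 rose (median -0.51, against -0.04), where 5.20% were called lower and 3.17% higher. In ssi2 sid2 against ssi2 limma called none (median -0.46, against -0.07), where 1.71% were called lower and 1.42% higher. Under an unadjusted 0.05 were 5, 3 and 3 of the 8 in these 3 comparisons, in that order. The share of all probe sets under it was not counted, so these counts cannot be judged against it.

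AT3G47540, which encodes a GH19 protein, had signals of 2576, 3116 and 1595 in ssi2, against 130, 590 and 143 in wild type. Its log2 difference was 3.29 (SE 0.573, limma adjusted p = 0.00362). In ssi2 act1 the signals were 211, 505 and 240, a difference from ssi2 of -2.92 (adjusted p = 0.00873). In ssi2 sid2 they were 1315, 477 and 1209, below ssi2 without overlap, and the difference of -1.34 was not called (adjusted p = 0.271). As for CHI, replicate 2 was the highest wild type array and the lowest ssi2 sid2 array.

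AT4G01700 had signals of 439, 503 and 466 in ssi2, against 112, 81.6 and 76.8 in wild type (log2 difference 2.2, SE 0.354, limma adjusted p = 0.00219). With 103, 131 and 248 in ssi2 act1 it fell by 1.54 relative to ssi2 (adjusted p = 0.0199). Quantile normalization (0.0518) and centring (0.0678) ended that call, as did leaving out ssi2 replicate 2 (0.0807) or replicate 1 (0.0629) or 2 (0.0719) of ssi2 act1. In ssi2 sid2 the signals were 271, 106 and 197, with a difference from ssi2 of -1.31 (adjusted p = 0.0739).

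AT2G43620 and AT2G43590, also GH19 genes, stand in a run of chitinase genes directly after CHI on chromosome 2. AT2G43620 had signals of 9.19, 22.2 and 67.2 in ssi2 act1, against 848, 512 and 396 in ssi2, a log2 difference of -3.73 (SE 0.529, limma adjusted p = 0.00146). Its wild type signals were 348, 177 and 97.6, and the difference of 1.52 in ssi2 against wild type was not called (adjusted p = 0.0981). In ssi2 sid2 it had 238, 87.6 and 156, a difference from ssi2 of -1.79 (adjusted p = 0.0991).

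AT2G43590 was lower in every mutant line than in wild type. Its signals were 40.4, 66.7 and 53.0 in ssi2 act1, 108, 73.5 and 48.6 in ssi2 sid2 and 116, 106 and 64.6 in ssi2, against 321, 194 and 306 in wild type. The log2 differences from wild type were -2.05 (limma adjusted p = 0.00853), -1.66 (0.01) and -1.38 (0.0158) in that order. For ssi2 the call ended when wild type replicate 1 (0.0658) or 3 (0.0616) was left out or just those 6 arrays were fitted (0.0574), and for ssi2 sid2 when its replicate 3 was left out (0.058). Neither added mutation differed from ssi2 past the threshold for AT2G43590, with differences of -0.67 for act1 (adjusted p = 0.245) and -0.28 for sid2 (adjusted p = 0.752).

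Signals of the other GH19 genes were low. Those of AT1G56680, AT2G43580 and AT2G43600 ranged from 0.916 to 33.1 over all arrays, a range in which the pseudocount sets how large a difference can appear, and those of AT2G43610 from 22.5 to 80.5. In the comparisons with ssi2 and of ssi2 with wild type their differences lay between -0.72 and 0.51, and none was called. AT2G43580 was lower in ssi2 sid2 than in wild type by a log2 difference of -0.94 (limma adjusted p = 0.0426), a call lost in 11 of 21 alternatives (adjusted p up to 0.166).

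Of 9 other GH18 genes 4 had a single-gene probe set, all from the run of GH18 genes on chromosome 4 that holds ChiC. AT4G19720, AT4G19730 and AT4G19740 had signals between 1.70 and 47.3 and no call in any comparison. AT4G19820, the gene next to ChiC, moved against it in ssi2 sid2. Its signals there were 253, 165 and 338, against 22.5, 15.2 and 26.4 in ssi2, a log2 difference of 2.80 (SE 0.275, limma adjusted p = 0.000307). This call held in each of the 22 alternatives, as did that of 1.93 in ssi2 sid2 against wild type, which had signals of 65.1, 38.3 and 54.9 (adjusted p = 0.00277).

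With act1, AT4G19820 had signals of 48.7, 49.2 and 44.7, a log2 difference of 0.78 from ssi2 (limma adjusted p = 0.114) and of -2.02 from ssi2 sid2 (adjusted p = 0.00291). In ssi2 against wild type it had -0.87 without overlap (adjusted p = 0.0689, with 0.000793 to 0.225 over the alternatives), and it was called without wild type replicate 2 (-1.03, adjusted p = 0.0418) or ssi2 sid2 replicate 2 (-0.87, adjusted p = 0.0468). ChiC and AT4G19820 are adjacent in the RefSeq gene order, and in ssi2 sid2 against ssi2 their differences were -2.63 and 2.80.

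**Figure D3:**
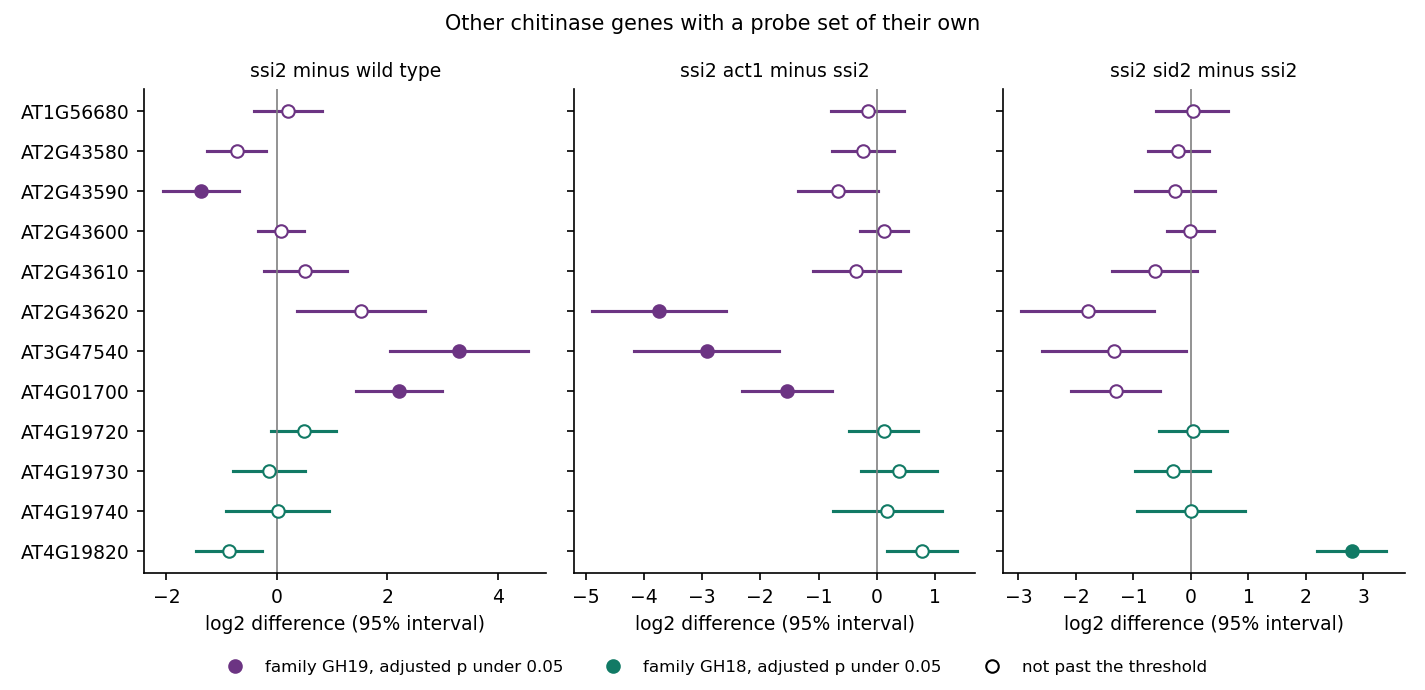
Log2 differences with 95% intervals for the 12 other chitinase genes that had a single-gene probe set, 8 of family GH19 and 4 of family GH18, in 3 comparisons; filled points passed an adjusted p of 0.05. AT3G47540 and AT4G01700 were higher in ssi2 and lower in ssi2 act1, and AT4G19820 was higher in ssi2 sid2.

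The gene order around the 3 genes was read from the RefSeq annotation. CHI lies 13 protein-coding genes from SSI2 on chromosome 2. ChiC is on another chromosome than all 3 mutated genes, and AT1G02360 is separated from ACT1 by 3063 and from SID2 by 6362 protein-coding genes of chromosome 1. The ssi2 mutation is carried by all 3 mutant lines. When a mutant line is set against wild type, an effect of the mutation and a difference between the lines in the linked stretch cannot be told apart. That holds for CHI and for its neighbours, among them AT2G43535, AT2G43550, AT2G43590 and AT2G43620. The fall of CHI in ssi2 act1 was measured between lines that both carry ssi2. Whether those lines are alike in the linked stretch is not in the labels and was not tested.

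Of the 20 measured genes nearest to CHI, 10 on each side, 3 were lower and 0 higher in ssi2 than in wild type, where 4.34% of all probe sets were called lower and 5.77% higher. Besides AT2G43590 these were AT2G43535 at -2.53 (SE 0.513, limma adjusted p = 0.00836) and AT2G43550 at -2.65 (SE 0.51, adjusted p = 0.00626), which lie 4 and 2 genes before CHI. Both were higher in ssi2 act1 than in ssi2, by 2.01 (adjusted p = 0.0326) and 1.80 (adjusted p = 0.0499), where CHI was lower. CHI and AT2G43620 were the 2 genes of this stretch that fell with act1. Of the 20 genes around ChiC 1 was higher and 1 lower in ssi2, and of those around AT1G02360 1 was higher and 0 lower.

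**Figure D4:**
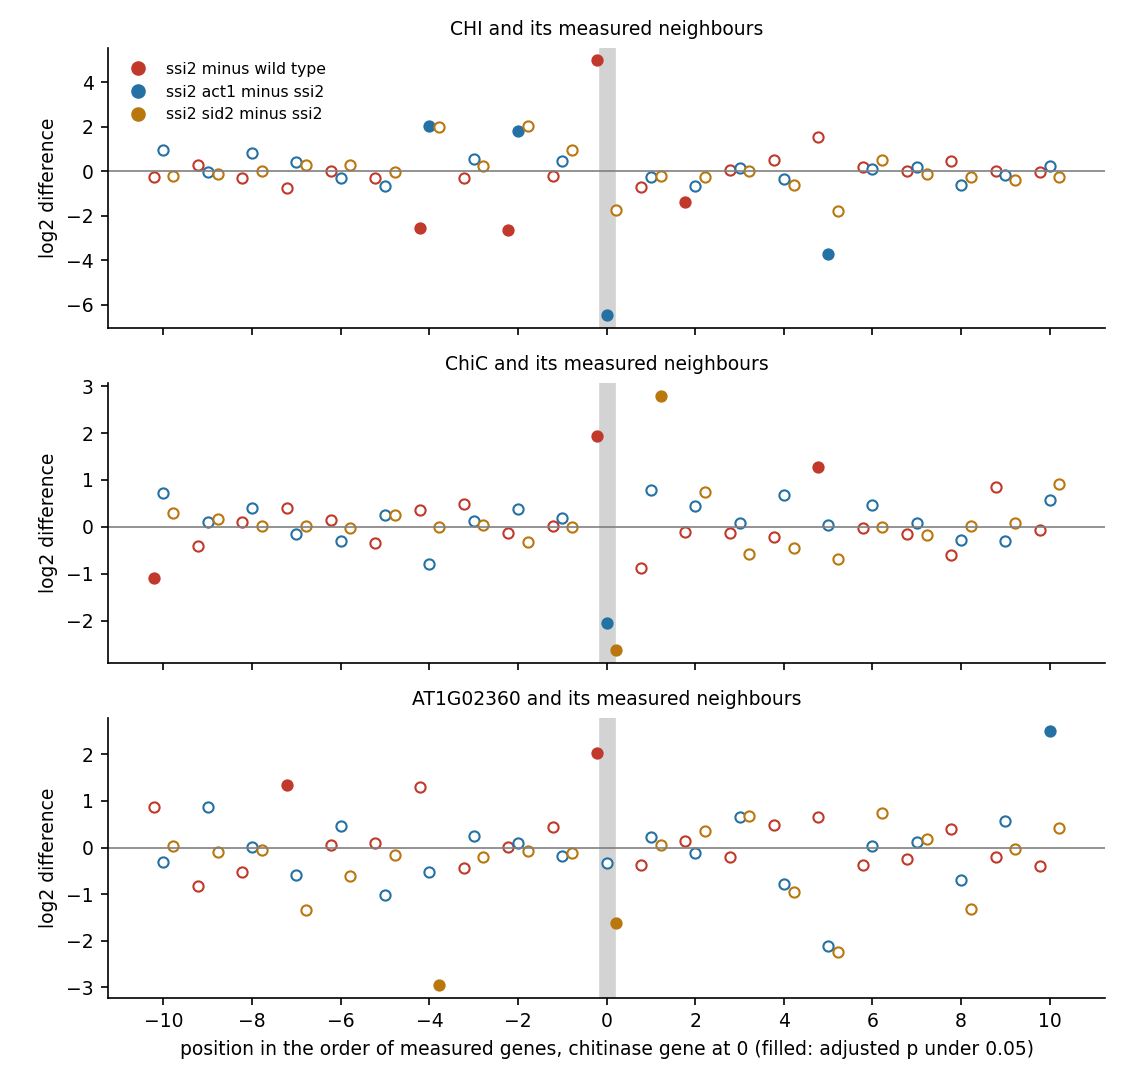
Log2 differences of CHI, ChiC and AT1G02360 and of up to 10 measured genes on each side of each, in gene order, for 3 comparisons; filled points passed an adjusted p of 0.05 and the grey bar marks the chitinase gene. CHI at 4.97 in ssi2 minus wild type stood among neighbours that were lower or not called, and AT4G19820, directly after ChiC, was higher in ssi2 sid2 by 2.80.

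Over the 12 arrays, the genes most like each chitinase were different genes, given here as a description over 13355 other genes on arrays that share the genotypes. For CHI these were AT1G28600 (Pearson's r = 0.965), AT3G01830 (0.963), AT1G21520 (0.962), AT3G47480 (0.95) and AT5G39670 (0.944). AT3G01830 had signals of 496, 662 and 266 in ssi2, against 2.5, 67.5 and 1.70 in wild type, so that wild type replicate 2 was the highest of its genotype here too. By mean log2 level all 5 lay between ssi2 and wild type in ssi2 sid2 and were lowest in ssi2 act1.

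For ChiC the most alike were OSM34, which encodes an osmotin of the pathogenesis-related proteins (r = 0.958), AT5G44380 (0.946), AT2G10920 (0.944), AT5G62150 (0.943) and AT1G49000 (0.943). OSM34 had signals of 1635, 3111 and 3988 in ssi2, against 5.93, 375 and 5.44 in wild type. For AT1G02360 they were ACA.l (0.957), AT5G25440 (0.944), AT5G66010 (0.928), ENGase85A, which encodes an endo-beta-N-acetylglucosaminidase (0.926), and AT1G80290 (0.923). ENGase85A had signals of 276, 348 and 598 in ssi2, against 71.2, 40.7 and 67.4 in wild type, with ssi2 replicate 3 the highest.

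These genes were picked for the highest r, so they set no standard for how alike the chitinases were to one another. Pearson's r over the 12 arrays was 0.552 between CHI and ChiC, 0.527 between ChiC and AT1G02360 and 0.134 between CHI and AT1G02360. ChiC ranked 1225 and AT1G02360 4875 among the 13355 genes by likeness to CHI.

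**Figure D5:**
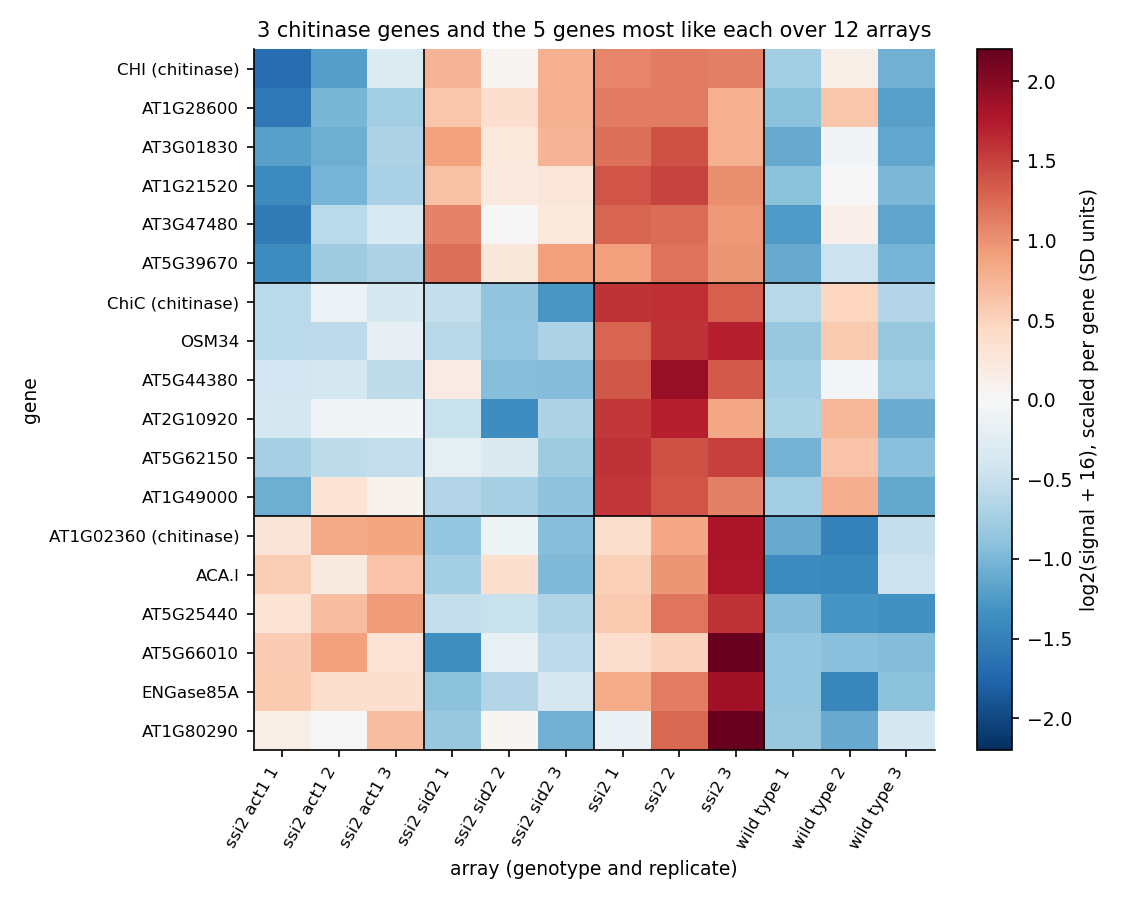
Levels of CHI, ChiC and AT1G02360 and of the 5 genes most like each over 12 arrays, as log2(signal + 16) scaled per gene, with arrays in columns by genotype. The CHI set was high in ssi2 and intermediate in ssi2 sid2, the ChiC set was highest in ssi2, and the AT1G02360 set was high in ssi2 and ssi2 act1.

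Few of the genes that act around chitinases were measured, meaning that the annotation assigned a probe set to that gene alone. It named no gene for 8794 of the 22810 probe sets, so a gene not counted here may still be on the array. Of 14 chitin perception and signalling genes 1 was, AT5G18610, which encodes the receptor-like cytoplasmic kinase PBL27. It had signals between 1.21 and 50.6 and no call. Of 8 genes of beta-1,3-glucanases, enzymes that cut another fungal wall polymer and plant callose, 4 were measured and limma called none in any comparison. Under an unadjusted 0.05 were 1 in ssi2 against wild type and 2 in ssi2 act1 against ssi2. The share of all probe sets under that threshold was not counted. AT4G16260 had 1343, 1841 and 280 in ssi2, against 3.02, 1625 and 2.23 in wild type, where replicate 2 alone was high, and its log2 difference of 3.45 was not called (SE 1.47, adjusted p = 0.176). Without wild type replicate 2 the difference was 5.61 and called (adjusted p = 0.00192), and in ssi2 act1 against ssi2 limma then called AT4G16260 at -4.22 (adjusted p = 0.00586) and AT3G13560 at -1.62 (adjusted p = 0.00827). In ssi2 against wild type AT3G13560 had 1.26 (adjusted p = 0.246) and AT2G27500 had 0.51 (adjusted p = 0.519).

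Of 7 pathogenesis-related marker genes 1 was measured, the defensin gene PDF1.2 of the jasmonate and ethylene response. Its signals were 25.8, 74.7 and 28.1 in ssi2 act1, 2244, 6945 and 472 in ssi2 sid2 and 315, 56.1 and 23.6 in ssi2, against 611, 6237 and 401 in wild type. It was lower in ssi2 act1 than in ssi2 sid2 by a log2 difference of -5.16 (limma adjusted p = 0.02), a call lost in 5 of 22 alternatives (adjusted p up to 0.0792). In ssi2 against wild type PDF1.2 had -3.59 (adjusted p = 0.0678). That difference was called in 5 of 22 alternatives, among them without ssi2 replicate 1 (-4.46, adjusted p = 0.0436). In ssi2 sid2 against ssi2 it had 4.33 (adjusted p = 0.0646), called in 7 of 22 alternatives.

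Markers of the leaf and of other cells were measured in part. Of 19 photosynthesis markers 1 was measured, RCA, which encodes Rubisco activase. Its signal was highest at 21357 in ssi2 replicate 1 and lowest at 2419 in wild type replicate 2, with no call in ssi2 against wild type. In wild type RCA had 12254, 2419 and 13400, and the listed root marker AT5G44020 had 10580, 9175 and 9327. These markers thus did not settle the tissue, which is known from the label. Of 8 root markers 5 were measured, and their summed signal was 2416 to 3315 in ssi2, against 9245 to 10654 in wild type, most of it from AT5G44020. That gene fell in ssi2 by 1.84 (SE 0.222, limma adjusted p = 0.000366), while PYK10, a beta-glucosidase gene of roots, had 1.84 (adjusted p = 0.0448), a call lost in 16 of 21 alternatives (adjusted p up to 0.171). The summed signal of the 2 measured guard cell markers of 7, AT1G22690 and FMA, was 932 to 1894 in ssi2, against 426 to 1111 in wild type, with no call. SAG101, the 1 measured gene of 7 senescence markers and also a component of immune signalling, had 276, 603 and 488 in ssi2, against 91.0, 105 and 58.6 in wild type (log2 difference 2.18, adjusted p = 0.000895). Trichome and vascular markers were not analysed here. Whether these changes have a part in those of the chitinase genes was not tested.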

How the data were processed

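Each sample was 1 Affymetrix array of leaf RNA, extracted with Trizol and labelled with biotin, per the labels' protocols. The deposited values were linear signal intensities, kept at their deposited scaling. Affymetrix Expression Console 1.0 is named by the submitters' processing notes, and how it summarised and scaled the probes is not stated there. Precision is limited by the number of arrays. Titles call the replicates biological, without more on separate cultivation, so a p-value measures no more than the spread of these samples. No scan or harvest batch is given, so none was tested.

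The table held 22810 probe sets, of which 64 controls were left out. Probe sets were named by gene number through the platform annotation and a RefSeq table (assembly TAIR10.1, used for names and gene order only). Of the probe sets 13513 named 1 gene, 503 named several and 8794 had no gene, and 13436 of those with 1 gene were found in the RefSeq table.

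Signals were transformed to log2(signal + 16), which understates differences of dim genes, and all 12 arrays were fitted in limma 3.58.1 (R 4.3.3) with a mean per genotype and no block. The 6 pairwise contrasts were moderated with eBayes, tested on both sides and adjusted by the Benjamini-Hochberg method over 22746 probe sets. The threshold for a call was an adjusted p of 0.05. Every adjusted p of a gene comes from this fit, except where an alternative is named beside the value. Ratios between genes were tested with exact permutation tests over arrays.

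The chitinase genes, the lists of related and marker genes and the alternatives were chosen with earlier results of these data known. Named were the 3 chitinase genes, every measured gene of the other chitinase and chitin perception lists, up to 3 genes of each other list with the largest differences in ssi2, and the 5 genes with the highest Pearson's r to each chitinase. AT2G43535 and AT2G43550 were named as called neighbours, after their values were seen. A gene with several probe sets was represented by the brightest. No pair of arrays held identical values. Correlations of the arrays' deviations from the genotype mean did not settle whether same-numbered replicates were paired. Of same-numbered pairs, 6 of 18 were over 0.1 (range -0.383 to 0.335), and differently numbered pairs ranged from -0.379 to 0.465. In ssi2 against wild type the same-numbered pairs had 0.115, 0.096 and 0.12, and the differently numbered pairs had -0.099 to -0.005.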

Additional observations from a re-analysis of the deposited data

How the results depend on the processing

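Over 22 alternatives, the differences of CHI, ChiC and AT1G02360 between ssi2 and wild type, of CHI and ChiC between ssi2 act1 and ssi2, and of ChiC between ssi2 sid2 and ssi2 kept their sign and call. Leaving out single arrays gave 4.25 to 6.0, 1.73 to 2.35 and 1.63 to 2.34 for the first 3. AT1G02360 in ssi2 sid2 against ssi2 was not called after quantile normalization (-1.45), at pseudocounts of 1 (-1.92) and 64 (-1.12), with only the 6 arrays compared (-1.62) or without both wild type replicate 2 and ssi2 replicate 3 (-1.23), and single arrays left out gave -1.93 to -1.23. AT1G02360 in ssi2 act1 against ssi2 turned to 0.05 without ssi2 replicate 3 and without both those arrays (-0.65 to 0.05 over single arrays). Against wild type, AT1G02360 in ssi2 act1 gained a call after quantile normalization (1.76), median centring (1.67) and a filter above the 40th percentile of signal (1.69), with array weights (1.65) and without both those arrays (1.46), with 1.46 to 1.94 over single arrays. In ssi2 act1 against ssi2 sid2 it gained one when arrays were quantile normalized (1.44) or centred on the median (1.42), when the 6 arrays were fitted alone (1.28), with array weights (1.52) and without both those arrays (1.28), with 1.14 to 1.54 over single arrays. CHI in ssi2 sid2 against wild type gained a call with array weights (4.34) and without both those arrays (4.25), with 2.5 to 4.25 over single arrays, and in ssi2 act1 against ssi2 sid2 it ranged from -5.83 to -3.79. In ssi2 sid2 against ssi2 CHI was not called in any of the 22 (-2.13 to -1.04 over single arrays). In ssi2 act1 against wild type, CHI turned to 0.36 with array weights (-2.6 to -0.45 over single arrays), and ChiC to 0.21 with array weights, to 0.30 without wild type replicate 2 or both those arrays and to 0.02 without ssi2 act1 replicate 1 (-0.32 to 0.30 over single arrays). With the replicate number as a block, all 18 differences of the 3 genes kept their call, such as 4.97 for CHI in ssi2 against wild type (adjusted p = 0.0186). The causes of these changes were not tested.

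The number of probe sets called moved more. It was 2299 in ssi2 against wild type (1161 with only the 6 arrays, 7720 with array weights, 1291 to 2842 over single arrays) and 1903 in ssi2 act1 against ssi2 (7242 with array weights, 3117 without both arrays, 887 to 2587). It was 711 in ssi2 sid2 against ssi2 (379 at a pseudocount of 1, 5504 with array weights, 233 to 1126). In ssi2 act1 against wild type it was 407 (268 at a pseudocount of 1, 92 with only the 6 arrays, 1859 with array weights, 799 without both arrays, 188 to 567), and in ssi2 sid2 against wild type 1458 (955, 4668 with array weights, 2246 without both arrays, 461 to 1779). In ssi2 act1 against ssi2 sid2 it was 1456 (968 at a pseudocount of 1, 4666 with array weights, 2676 without both arrays, 416 to 2072). Median centring put the share of higher calls at 43.7% in ssi2 sid2 against wild type, against 56.4%, and at 50.9% in ssi2 act1 against ssi2 sid2, against 38.1%.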

Other observations

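Wild type replicate 2 differed from the other wild type arrays in several of the genes described above. CHI had a signal of 1129 there, against 166 and 85.3 on the other wild type arrays, and AT3G47540 had 590, against 130 and 143. The same array had the highest wild type signal of OSM34 (375, against 5.93 and 5.44), of the glucanase gene AT4G16260 (1625, against 3.02 and 2.23) and of PDF1.2 (6237, against 611 and 401). It had the lowest wild type signal of RCA (2419, against 12254 and 13400) and of AT1G02360 (17.6, against 27.9 and 48.9). Without it the log2 differences in ssi2 against wild type were 6.0 for CHI, 2.35 for ChiC and 1.80 for AT1G02360, all called by limma.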
